A study of Mus musculus with 25 samples.

Results

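The 10 core genes of the circadian clock, *Arntl*, *Clock*, *Per1*, *Per2*, *Per3*, *Cry1*, *Cry2*, *Nr1d1*, *Nr1d2* and *Dbp*, were followed in the *soleus* muscle of mice with and without *Dnmt3a* in their muscle fibers, at rest and after treadmill running. The genes were chosen by name, with earlier results of these data known. All 10 were found among the 52636 genes of the count table and were among the 16340 genes tested. RNA of 25 male and female mice on a C57BL/6 background, all 12 weeks old, was sequenced as 1 library per mouse. All mice carried floxed *Dnmt3a* alleles (*Dnmt3a* flox/flox). WT mice had no Cre, and mD3AKO mice carried the mCK-Cre transgene. In it, the muscle creatine kinase promoter drives Cre in skeletal muscle and heart. The study names satellite cells and non-muscle cells as the likely source of the *Dnmt3a* RNA that remains. Exercised mice ran for 30 minutes and were killed 60 minutes later (7 WT, 6 mD3AKO), and rested mice spent the time of the run in a sham treadmill (5 WT, 7 mD3AKO). The rested mice are described as killed at the same time, and the clock hour of death is not given in the sources used here.

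The mammalian clock is a feedback loop. CLOCK and BMAL1, the product of *Arntl*, bind E-boxes as a pair and activate the Per, Cry, Nr1d and *Dbp* genes, and PER and CRY proteins then repress that pair. REV-ERBα and REV-ERBβ, the products of *Nr1d1* and *Nr1d2*, repress *Arntl* through ROR elements, and DBP activates its targets through D-boxes. In mouse tissues, muscle included, the RNA of *Arntl* therefore peaks at a different time of day from that of the Per, Nr1d and *Dbp* genes. *Per1* and *Per2* are also known to respond quickly to cAMP signalling and to glucocorticoids.

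The promoters of 4 of the genes are shown because they belong to 2 of the 3 genes that changed with exercise (*Per1*, *Nr1d1*), to the gene against which the others are set below (*Arntl*) and to a Per gene that did not pass (*Per3*). Each is 300 bases of RefSeq sequence on GRCm38.p6, the assembly also called mm10, from 250 bases before the annotated start to 50 after it. Capitals mark an E-box (CACGTG), a D-box (TTATGTAA or TTATGCAA) or a ROR element (the letters AANTN followed by GGTCA), and a cAMP response element (TGACGTCA) was also searched, all on both strands. The windows are chr11:69098699-69098998 on the plus strand for *Per1*, chr11:98775328-98775627 on the minus strand for *Nr1d1*, chr4:151044616-151044915 on the minus strand for *Per3* and chr7:113207261-113207560 on the plus strand for *Arntl*. The table holds 2 windows each for *Per1* and *Arntl*, and the one with a match is printed.
Per1: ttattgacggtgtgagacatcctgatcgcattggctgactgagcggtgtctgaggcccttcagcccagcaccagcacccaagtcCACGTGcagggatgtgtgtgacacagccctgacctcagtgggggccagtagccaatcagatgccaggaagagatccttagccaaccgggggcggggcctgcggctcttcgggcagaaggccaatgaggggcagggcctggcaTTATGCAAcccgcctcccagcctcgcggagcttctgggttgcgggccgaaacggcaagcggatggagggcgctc
Nr1d1: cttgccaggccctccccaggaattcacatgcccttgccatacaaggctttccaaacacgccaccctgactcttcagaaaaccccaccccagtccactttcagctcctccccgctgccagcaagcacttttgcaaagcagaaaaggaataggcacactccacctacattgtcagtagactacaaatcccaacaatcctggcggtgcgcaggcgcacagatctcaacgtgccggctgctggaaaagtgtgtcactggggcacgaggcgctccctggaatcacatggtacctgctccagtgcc
Per3: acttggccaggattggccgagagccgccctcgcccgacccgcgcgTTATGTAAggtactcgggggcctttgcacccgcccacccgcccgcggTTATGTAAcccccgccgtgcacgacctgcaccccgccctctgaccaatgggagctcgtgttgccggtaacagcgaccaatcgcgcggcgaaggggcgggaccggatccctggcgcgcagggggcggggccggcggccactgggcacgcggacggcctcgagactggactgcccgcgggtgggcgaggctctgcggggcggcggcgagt
Arntl: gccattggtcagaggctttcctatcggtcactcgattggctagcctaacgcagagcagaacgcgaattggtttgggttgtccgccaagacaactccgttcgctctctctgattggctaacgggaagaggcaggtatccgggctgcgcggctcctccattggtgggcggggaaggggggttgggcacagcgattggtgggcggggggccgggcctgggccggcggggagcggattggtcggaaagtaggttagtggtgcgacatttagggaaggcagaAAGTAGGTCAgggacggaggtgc

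The printed *Per1* window, whose start lies inside the span of the gene given below, held an E-box 166 bases before that start and a D-box 24 bases before it. The *Per3* window held 2 D-boxes, at 205 and 158 bases before the start, and the printed *Arntl* window a ROR element from position 28 after the start. The other *Per1* window (chr11:69099902-69100201) and the other *Arntl* window (chr7:113207215-113207514) held none of the letters searched. None of the letters searched stood in the *Nr1d1* window, which says nothing of sites elsewhere. Of the 10 genes, 9 had an entry and *Per2* had none. Of 13 windows in all, 4 held a match, the fourth being a *Cry1* window (chr10:85185005-85185304, minus strand) with an E-box 60 bases before the start. Among all 32851 promoters of the table, 7.15% held the E-box, 0.938% and 0.743% the D-box forms, 0.606% the ROR element and 1.79% the cAMP response element.

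The libraries held between 22671457 and 37431801 counts, with a median of 32189360, at which 1 CPM, the reads of a gene scaled to library size, rests on about 32.2 reads. Over all libraries, between 11348 reads (*Cry1*) and 127274 reads (*Nr1d2*) were counted per clock gene. *Dnmt3a* was between 93.4 and 130.5 CPM in WT mice and between 34.5 and 53.9 CPM in mD3AKO mice, so that the genotypes did not overlap. Slow fiber genes were high in every library, with the slow myosin *Myh7* at 8498 CPM or more. In the library of mouse 15, a rested mD3AKO male, 3 genes took 39.5% of the counts, against 15.5% to 20.3% in the other 24 libraries. Mouse numbers 1 to 6 and 20 to 25 are females and 7 to 19 males, so that the males form 1 run of numbers and the females 2.

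The level of each gene was compared per length, as CPM per kilobase of exon. At rest, the mean was highest for *Nr1d2* (27.7 ± 4.96, SD, n = 12), followed by *Nr1d1* (21.7 ± 3.12) and *Dbp* (19.5 ± 7.25). *Cry2* (5.15 ± 0.950), *Clock* (5.11 ± 0.824), *Cry1* (4.21 ± 0.411) and *Per1* (4.01 ± 1.95) came next, then *Per3* (2.96 ± 0.995) and *Arntl* (2.91 ± 1.44), with *Per2* last (1.64 ± 0.843). Neighbours in this order overlapped in their mean ± SD, apart from *Dbp* and *Cry2*. After exercise, on the same scale, *Per1* stood at 11.4 ± 1.60 (n = 13), above *Cry2* (6.11 ± 0.820) by more than their SDs, and *Per2* at 3.66 ± 1.01 within the spread of *Per3* (3.07 ± 0.756).

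**Figure D1:**
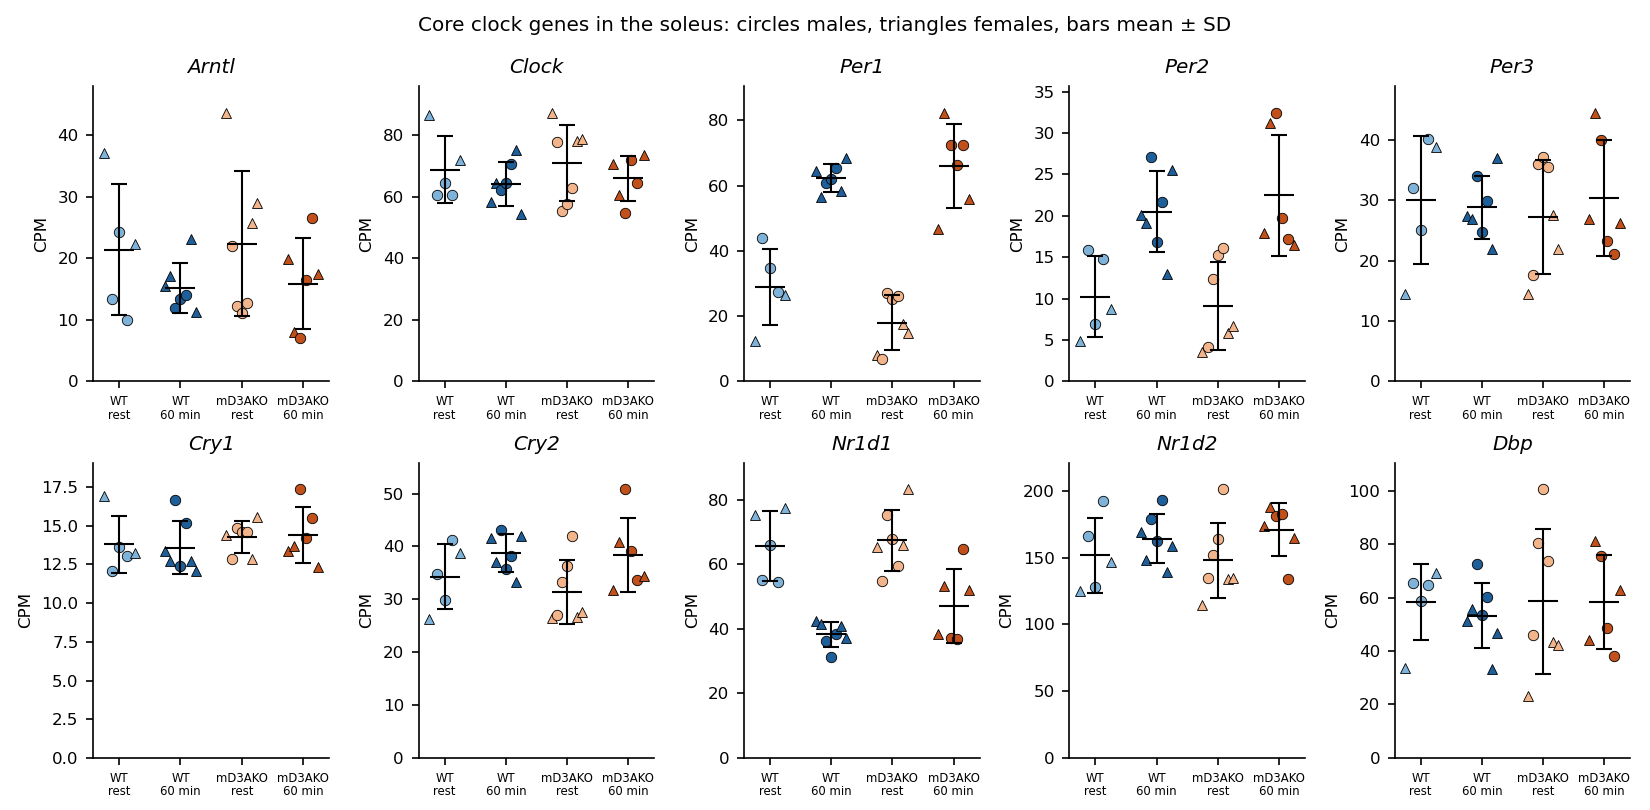
CPM of the 10 clock genes (vertical axes, from 0, a scale of its own per gene) in the 4 groups of genotype and exercise. Each point is a mouse, circles are males and triangles females, and bars give the mean and SD. *Per1* is the gene whose exercised mice, at 46.8 to 82.3 CPM, all lie above all rested mice.

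Exercise was tested as the average of its effect in both genotypes, by the quasi-likelihood F test of edgeR, and p-values were adjusted by Benjamini-Hochberg over all 16340 genes. *Per1* and *Per2* rose and *Nr1d1* fell, so that 3 of the 10 clock genes passed an adjusted p of 0.05, where 10.4% of all genes did (5.70% higher and 4.69% lower). As the genes were chosen with earlier results of these data known, this count is a description. The median log2 fold change of the 10 genes was 0.02, and that of all tested genes was within 0.001 of 0. The other 7 clock genes did not pass, and their intervals are given below. With DESeq2 and limma-voom the count was also 3.

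Among the negative limb of the loop, *Per1*, whose protein represses CLOCK and BMAL1, changed most. The gene (ENSMUSG00000020893.17) spans chr11:69095217-69109960 on the plus strand of mm10. In the rested WT mice it stood at 12.2, 26.4, 27.5, 34.6 and 44.0 CPM, and in the exercised WT mice between 56.5 and 68.5 CPM with a median of 62.0. In mD3AKO mice it ranged from 6.99 to 27.0 CPM at rest (median 17.7) and from 46.8 to 82.3 CPM after exercise (median 69.3). All 13 exercised mice lay above all 12 rested mice, an order that 0.765% of all genes showed. The log2 fold change was 1.5 (SE 0.196), a 2.82-fold rise, with an adjusted p of 4.39e-06. As a description, the rested mice were farther apart than the exercised ones. The SD within groups was 0.76 on the log2 scale at rest and 0.21 after exercise, against medians of 0.14 and 0.13 over the 7213 genes that average 3.5 log2 CPM or more.

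*Per2* (ENSMUSG00000055866.9, chr1:91415982-91459324, minus strand), the close relative of *Per1*, stood at 4.83, 6.93, 8.74, 14.8 and 15.9 CPM in the rested WT mice and between 13.0 and 27.1 CPM (median 20.1) in the exercised ones. In mD3AKO mice it ranged from 3.55 to 16.2 CPM at rest (median 6.72) and from 16.5 to 32.4 CPM after exercise (median 18.9). The groups overlapped by a single exercised mouse, a WT female at 13.0 CPM, and the other 12 exercised mice lay above every rested mouse. The share of all genes with such an order is not given here. The log2 fold change was 1.16 (SE 0.235), with an adjusted p of 0.00116. *Per3*, the third of the family, overlapped widely, at 14.5 to 40.2 CPM at rest and 21.0 to 44.5 CPM after exercise. Its log2 fold change was 0.05 (95% interval -0.30 to 0.40, adjusted p = 0.932).

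The cryptochromes, which repress together with the PER proteins, showed smaller differences. *Cry2* lay between 26.3 and 42.0 CPM at rest and between 31.8 and 50.8 CPM after exercise, and all 13 exercised mice were above the median of the rested mice. Its log2 fold change of 0.24 (SE 0.0888, 95% interval 0.05 to 0.42) had an adjusted p of 0.0935 and so did not pass. It did pass with sex in the model, at 0.26 and an adjusted p of 0.0383, with the runs of mouse numbers in the model, at 0.27 and 0.0382, and without mouse 15, at 0.28 and 0.0298. *Cry1* lay at 12.1 to 16.9 CPM at rest and 12.0 to 17.3 CPM after exercise, with a log2 fold change of -0.0031 (95% interval -0.14 to 0.13).

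*Nr1d1* (ENSMUSG00000020889.11, chr11:98767932-98775333, minus strand), the repressor of *Arntl*, was the clock gene that fell. Its rested WT mice were at 54.5, 55, 65.9, 75.1 and 77.4 CPM and its exercised WT mice between 31.2 and 42.4 CPM (median 38.3). In mD3AKO mice it ranged from 54.8 to 83.2 CPM at rest (median 66.0) and from 36.9 to 64.5 CPM after exercise (median 45.2). Of the 13 exercised mice, 12 lay below every rested mouse, and the exception was mouse 19, an mD3AKO male at 64.5 CPM. How many of all genes showed such an order is not given here. The log2 fold change was -0.65 (SE 0.0906), to 0.638 of the level at rest, with an adjusted p of 1.15e-05. Its relative *Nr1d2* did not fall, at 114.8 to 201.2 CPM at rest and 134.0 to 193.0 CPM after exercise, with a log2 fold change of 0.16 (95% interval -0.01 to 0.34, adjusted p = 0.273). *Nr1d1* shares 263 exon bases with *Thra*, a thyroid hormone receptor gene on the opposite strand, and whether counting used the strand is not given in the sources used here. *Thra* lay between 45.5 and 66.2 CPM at rest and between 44.6 and 58.5 CPM after exercise, and its log2 fold change was -0.16 (SE 0.0428, adjusted p = 0.0174), smaller in size than that of *Nr1d1*.

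Of the activators, *Arntl* (ENSMUSG00000055116.8, chr7:113207465-113314126, plus strand) ranged from 9.97 to 43.6 CPM at rest and from 7.11 to 26.5 CPM after exercise. Its log2 fold change of -0.50 (SE 0.240, 95% interval -0.995 to 0.0047) had an adjusted p of 0.234. *Clock* was more even, at 55.3 to 87.3 CPM at rest and 54.3 to 75.2 CPM after exercise, with a log2 fold change of -0.10 (95% interval -0.26 to 0.06). Without each mouse in turn, this fold change of *Clock* ran from -0.129 to -0.0543. *Dbp*, an output of the loop, ranged from 23.3 to 100.5 CPM at rest and from 33.2 to 81.0 CPM after exercise, with a log2 fold change of -0.07 (95% interval -0.45 to 0.32). *Dbp* shares 539 exon bases with *Sphk2* on the opposite strand, and *Cry2* shares 295 with *D930015M05Rik*.

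**Figure D2:**
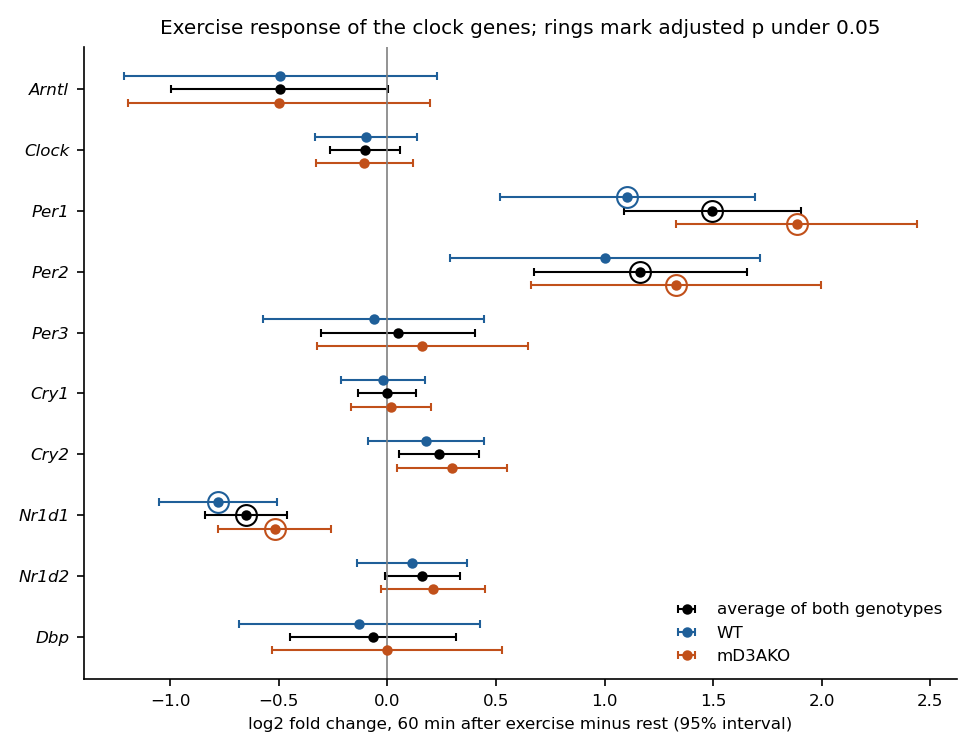
Log2 fold changes of the 10 clock genes after exercise (horizontal axis, 95% intervals) as the average of both genotypes (black), in WT mice (blue) and in mD3AKO mice (orange). Rings mark an adjusted p under 0.05: *Per1* and *Nr1d1* are ringed in all 3 comparisons, and *Per2* in the average and in mD3AKO mice but not in WT mice, where it passed with sex in the model (adjusted p = 0.0376, edgeR).

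Within WT mice, *Per1* rose by 1.11 on the log2 scale (SE 0.283, adjusted p = 0.0231, edgeR) and *Nr1d1* fell by 0.78 (SE 0.130, adjusted p = 0.000351). *Per2* was higher by 1.00 (SE 0.342) without passing (adjusted p = 0.125), so that 2 of the 10 genes passed, where 3.59% of all genes did. *Per2* did pass in WT mice with sex in the model, at 1.14 and an adjusted p of 0.0376, and with the runs of mouse numbers in the model, at 1.14 and 0.039. Without mouse 1, 14 or 20, each a rested WT mouse, *Per1* did not pass in WT mice either, with adjusted p of 0.0673, 0.0609 and 0.0684, and the count was 1. Within mD3AKO mice, 3 of the 10 genes passed, where 6.02% of all genes did. *Per1* rose there by 1.88 (SE 0.267, adjusted p = 3.20e-05) and *Per2* by 1.33 (SE 0.321, adjusted p = 0.0107), and *Nr1d1* fell by 0.52 (SE 0.126, adjusted p = 0.0108). With library totals in place of TMM factors, *Nr1d1* in mD3AKO mice had an adjusted p of 0.0529.

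These differences between genotypes were themselves tested as an interaction, which no clock gene passed. For *Per1*, the response of mD3AKO mice was larger by 0.78 on the log2 scale (SE 0.379, 95% interval -0.01 to 1.57), with an unadjusted p of 0.05 and an adjusted p of 1.00 (edgeR). For *Per2* the difference was 0.32 (SE 0.462) and for *Nr1d1* 0.26 (SE 0.181), and those of the other 7 genes lay between -0.01 and 0.22. Without each mouse in turn, the difference ran from 0.58 to 0.97 for *Per1*, from 0.11 (without mouse 11) to 0.51 (without mouse 15) for *Per2* and from 0.15 (without mouse 19) to 0.32 for *Nr1d1*. No gene of all 16340 passed with edgeR, 403 (2.47%) had an unadjusted p under 0.05, and DESeq2 and limma-voom also called 0. On simulated counts, an interaction of 1 on the log2 scale was recovered for 65.0% of genes and of 0.5 for 12.4%. Even for these genes, drawn at random with 1 spread each over all groups, a difference of the size seen for *Per1* can be missed. The rates do not hold for *Per1* itself. Its SD within groups was 0.76 at rest and 0.21 after exercise, against the medians of 0.14 and 0.13 over the 7213 genes described above.

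The loss of *Dnmt3a* moved none of the clock genes past the test, where 0.269% of all genes passed (44 genes). Over rest and exercise together, *Per1* was lower in mD3AKO mice by 0.31 on the log2 scale (SE 0.190), with values from -0.404 to -0.206 (without mouse 11) when each mouse was left out. *Nr1d1* was higher by 0.17 (SE 0.0907), from 0.11 (without mouse 19) to 0.20 without each mouse in turn and at 0.0712 in females and 0.263 in males alone. The other 8 genes lay between -0.07 and 0.07. The adjusted p (edgeR) were 0.859 or more. The average hides different values in the 2 states for *Per1*, which was lower in mD3AKO mice by 0.70 at rest (SE 0.276, unadjusted p = 0.0184, adjusted p = 1.00) and higher by 0.08 after exercise (SE 0.259), the latter from 0.0105 (without mouse 6) to 0.165 (without mouse 3) without each mouse in turn. The fit takes 1 spread per gene for all 4 groups. The SD of *Per1* within groups was 0.76 at rest and 0.21 after exercise on the log2 scale. Its SE and p at rest may therefore be too small, and its SE after exercise too large. *Nr1d1* was higher by 0.04 at rest (SE 0.131) and by 0.30 after exercise (SE 0.125, unadjusted p = 0.0239, adjusted p = 0.827), and the latter ran from 0.19 (without mouse 19) to 0.36 without each mouse in turn. Within a state, none of the 10 genes passed, where 0.0918% of all genes did at rest and 0.11% after exercise, and the difference between the states is the interaction given above. Over both states, the intervals were narrowest for *Cry1*, from -0.07 to 0.20, and widest for *Arntl*, from -0.43 to 0.57. That of *Per1*, from -0.70 to 0.09, reached farthest from 0. A log2 difference of up to 0.57 in *Arntl*, or of 0.70 toward lower levels in *Per1*, is therefore within what these mice allow.

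Mice of the same group differed from each other in ways that several clock genes shared. *Arntl* was set against each of the other 9 genes over the 25 mice on log2 CPM with the mean of each group removed, with 100000 permutations within groups. Pearson's r was 0.837 for *Clock*, its partner, and negative for *Per2* (-0.895), *Per3* (-0.874), *Dbp* (-0.864), *Cry2* (-0.842), *Nr1d2* (-0.816) and *Per1* (-0.644). The permutation p, adjusted over the 9 relations, was between 2.25e-05 and 0.00436 for these 7 genes, and the smallest p that the permutations can give is 1e-05. Of the other 16339 genes tested, these clock genes among them, 1.69% were at least as close to *Arntl* in either direction as *Per1*, the least close of the 7, and 0.141% at least as close as *Nr1d2*, the next. These shares are descriptions, and genes outside the clock were as close as *Clock* or closer. Spearman's rho for them ran in the same directions, 0.833 for *Clock* and between -0.875 and -0.597 for the other 6, with adjusted permutation p of 0.0105 or less. Without the 2 mice farthest from the median of *Arntl*, r was 0.817 for *Clock* and between -0.895 and -0.702 for the other 6. The relation did not pass for *Nr1d1* (r = 0.392, rho = 0.376, adjusted permutation p = 0.11) or *Cry1* (r = 0.0153, rho = -0.0054, adjusted permutation p = 0.944).

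Within each sex, *Clock*, *Per2*, *Per3*, *Cry2*, *Nr1d2* and *Dbp* kept their sign and passed, while *Per1* passed in the 12 females (r = -0.837, adjusted permutation p = 0.00423) and not in the 13 males (r = -0.355, adjusted permutation p = 0.216). Among the 12 rested mice alone, *Per1* also passed (r = -0.735, adjusted permutation p = 0.0165), and among the 13 exercised mice it did not (r = -0.532, adjusted permutation p = 0.218). Whether these differences between sexes or states exceed chance was not tested. The clock hour of death and the cage are not in the labels, and their part in these relations was not tested.

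**Figure D3:**
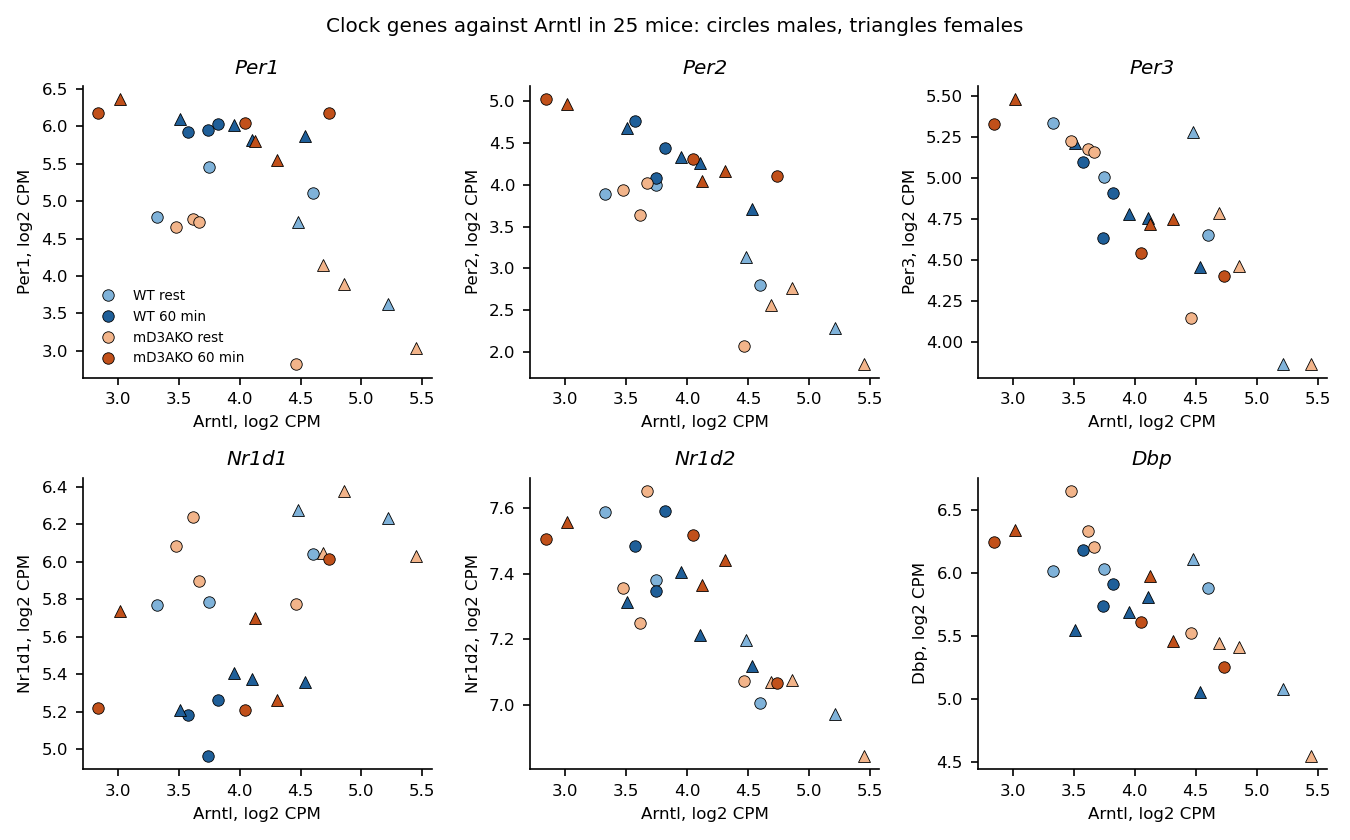
Log2 CPM of 6 clock genes (vertical axes) against log2 CPM of *Arntl* (horizontal axis) in the 25 mice, coloured by group, circles males and triangles females. *Per2*, *Per3*, *Nr1d2* and *Dbp* are lower in mice with more *Arntl* (r within groups between -0.895 and -0.816), and the rested mice lie below the exercised mice for *Per1*.

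With log2 CPM of *Arntl* added to the model as a covariate, an alternative chosen after the data were seen, the same 3 genes passed for exercise. *Per1* was at 1.35 (adjusted p = 1.65e-06), *Per2* at 0.90 (adjusted p = 3.11e-06) and *Nr1d1* at -0.59 (adjusted p = 4.99e-05), all by edgeR. *Dbp* was at -0.32 and an adjusted p of 0.0516 there.

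Females and males at rest overlapped narrowly in *Arntl*. The 5 rested females were at 22.3, 25.7, 29.0, 37.1 and 43.6 CPM and the 7 rested males between 9.97 and 24.2 CPM. Of the rested females, mice 1 and 2 had the 2 highest values and the other 3, numbered 20 or above, lay between 22.3 and 29.0 CPM, and a difference between the sexes at rest alone was not tested. After exercise, females lay between 8.04 and 23.1 CPM and males between 7.11 and 26.5 CPM. In a fit of 8 groups of sex, genotype and exercise, added after the data were seen, none of the 10 clock genes passed for sex. Of all genes, 8.65% did. *Arntl* was lower in males by 0.57 (SE 0.202, adjusted p = 0.0832, edgeR) and *Clock* by 0.19 (SE 0.0646, adjusted p = 0.0744). As a description, the unadjusted p for sex was under 0.05 for these and for *Per1*, *Per2*, *Cry2*, *Nr1d1*, *Nr1d2* and *Dbp*. It was not for *Per3* and *Cry1*. The share of all genes under this unadjusted threshold is not given here, so nothing particular to the clock genes can be read from it. The log2 fold change of *Arntl* after exercise was -0.97 in females (SE 0.290, adjusted p = 0.0713) and -0.04 in males (SE 0.281, adjusted p = 0.969), and neither passed. The difference of 0.93 between these responses (SE 0.404) had an unadjusted p of 0.0314 and an adjusted p of 1.00.

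In the same fit, *Per1* rose by 1.93 in females and 1.28 in males and *Nr1d1* fell by 0.75 and 0.60, all with an adjusted p (edgeR) of 0.00226 or less, where 3.70% of all genes passed in females and 6.87% in males. *Per2* rose by 1.77 in females (SE 0.317, adjusted p = 0.00121) and was higher by 0.89 in males (SE 0.277, adjusted p = 0.0570). The difference of *Per2* between the sexes was -0.88 (SE 0.413, unadjusted p = 0.0454, adjusted p = 1.00). For this difference in response, none of the 10 genes and 0.0551% of all genes passed. At an unadjusted p under 0.05 stood 4 of the 10 (*Arntl*, *Clock*, *Per2* and *Cry1*) and 3.34% of all genes. *Cry1* was at 0.17 in males and -0.19 in females, a difference of 0.35 (SE 0.111, unadjusted p = 0.00464, adjusted p = 0.997, edgeR). *Clock* was at 0.05 in males and -0.29 in females, a difference of 0.34 (SE 0.129, unadjusted p = 0.0153, adjusted p = 1.00, edgeR).

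**Figure D4:**
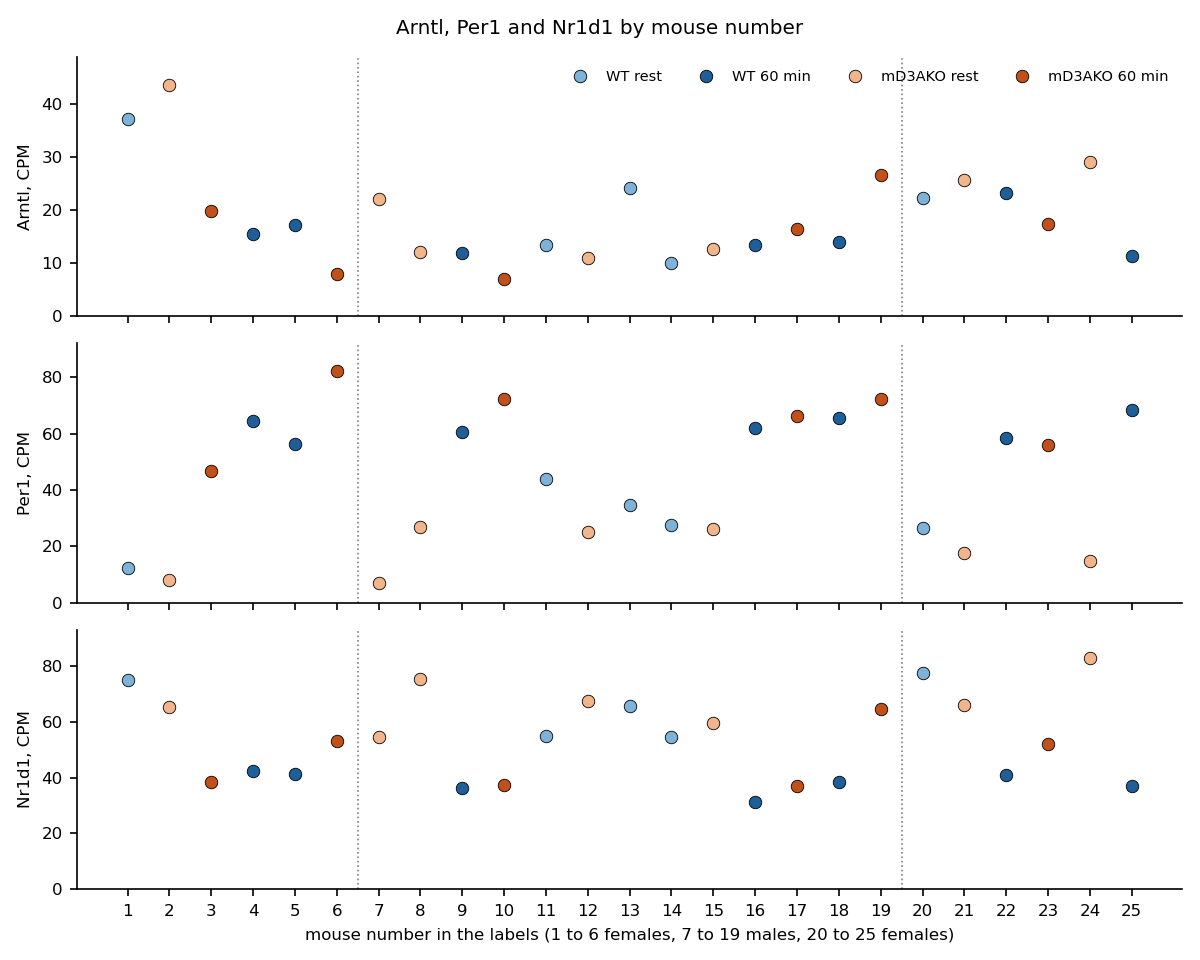
CPM of *Arntl*, *Per1* and *Nr1d1* (vertical axes, from 0) by the mouse number of the labels, coloured by group, with dotted lines between the runs of females, males and females. Rested mice 1 and 2 are highest for *Arntl*, at 37.1 and 43.6 CPM, and within each run the exercised mice lie above the rested ones for *Per1*.

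Of 24 further genes of the clock network, 23 were tested (*Fbxl21* was not), 6 rose and 1 fell with exercise, and none passed for genotype. The share called, against 10.4% of all genes, is a description, since the list was chosen with results of these data known. *Nfil3*, whose protein competes with DBP at D-boxes, rose most, from 7.15 to 27.0 CPM at rest to 31.5 to 74.8 CPM after exercise, a log2 fold change of 2.16 (SE 0.191, adjusted p = 6.80e-09, edgeR). The other D-box factors, *Tef* and *Hlf*, were at 0.06 and 0.08 without passing.

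Among the repressors at E-boxes, *Ciart* rose by 1.71 (SE 0.345, adjusted p = 0.00113), from 0.792 to 9.39 CPM at rest to 4.31 to 23.2 CPM after exercise. *Bhlhe40* fell by 0.40 (SE 0.0883, adjusted p = 0.003, edgeR), with overlap between 76.8 to 128.8 CPM at rest and 62.7 to 113.2 CPM after exercise. Of the clock outputs, *Wee1*, a cell cycle kinase, rose by 1.53, the leucine zipper gene *Tsc22d3* by 1.33 and the deubiquitinase *Usp2* by 0.88. The exercised mice lay above the rested mice for *Wee1*, by a narrow margin (8.26 or more against at most 8.25 CPM), and for *Tsc22d3* (190.6 or more against at most 126.0 CPM). This order was shown by 0.765% of all genes. They overlapped with the rested mice narrowly for *Usp2* (151.1 or more against at most 153.5 CPM). Of the kinases and ubiquitin ligases that set the stability of PER and CRY, *Csnk1d*, casein kinase 1 delta, rose by 0.15 (adjusted p = 0.00453), and the other 6 tested did not pass. Neither the ROR receptors, which activate *Arntl*, nor the paralogs *Npas2* and *Arntl2* passed.

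**Figure D5:**
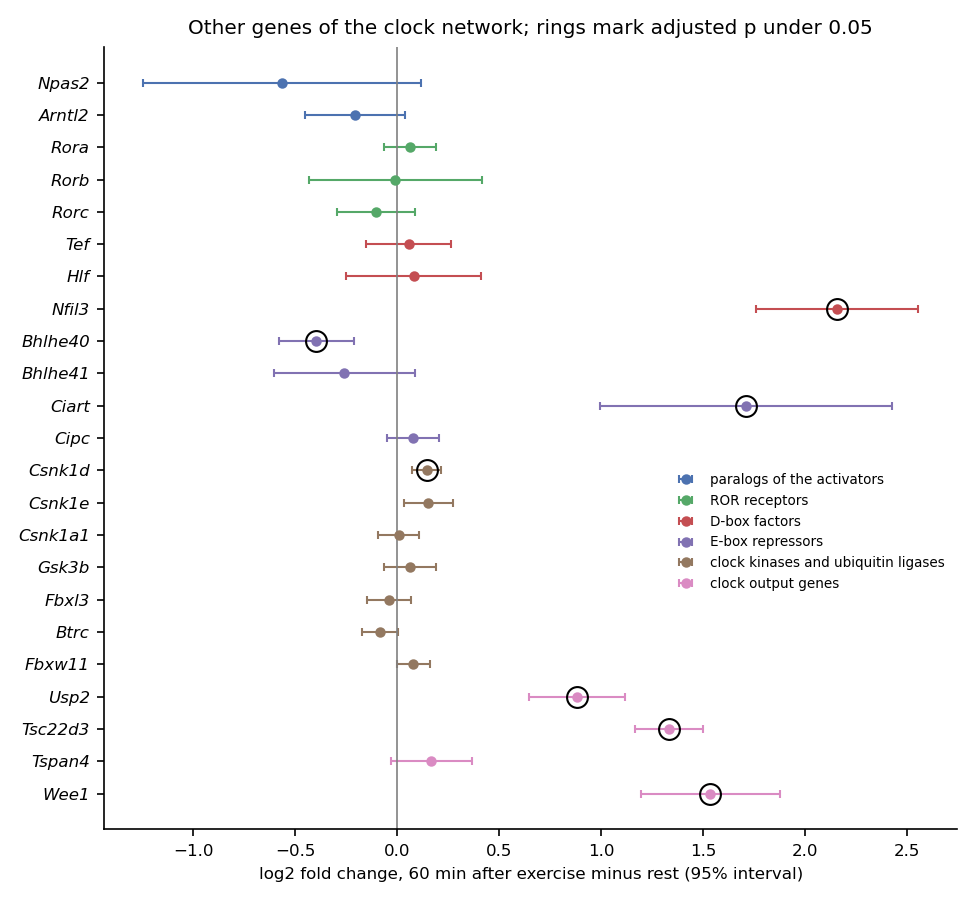
Log2 fold changes after exercise (horizontal axis, average of both genotypes, 95% intervals) of the 23 tested genes of the clock network, coloured by group of function. Rings mark an adjusted p under 0.05, and *Nfil3*, *Ciart*, *Wee1*, *Tsc22d3* and *Usp2* stand farthest to the right, at 0.88 to 2.16.

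The genes whose levels were most like those of *Arntl*, *Dbp* and *Per1*, the 10 clock genes left out, were found by Pearson's r over the 25 libraries with group means removed, as a description. Closest to *Arntl* were *Leo1* (0.930), *Asph* (0.863), *6430548M08Rik* (0.859), *Dyrk2* (0.857) and *Fam110b* (0.830). Closest to *Dbp* were *Ciart* (0.914), *Tef* (0.910), *Atcayos* (0.888), *Egflam* (0.861) and *Dusp14* (0.855), of which *Ciart* and *Tef* are in the clock network. Closest to *Per1* were *Sgk1* (0.869), *Carmil3* (0.852), *Mid1ip1* (0.787), *Ier3* (0.784) and *Ciart* (0.779).

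Other genes moved with exercise beside *Per1* and *Per2*, and their counts stand against 5.70% of all genes that rose and 4.69% that fell. The counts are descriptions, since these lists too were chosen with earlier results of these data known. All 9 listed glucocorticoid targets rose, with a median log2 fold change of 1.24 and a summed level of 353.9 to 526.5 CPM at rest and 792.9 to 1028.3 CPM after exercise, and *Tsc22d3* is on this list too. Of 10 listed CREB and immediate early targets, 8 rose, with a median of 2.04, and the part of either list in the change of the clock genes was not tested. Of the markers of other cells, *Pax7* and *Myf5* of 5 satellite cell genes and *Cdh5*, *Kdr* and *Emcn* of 5 endothelial genes fell, by 0.23 to 0.58. The summed level of the endothelial genes was 326.1 to 453.0 CPM at rest and 278.5 to 367.7 CPM after exercise, and that of the satellite cell genes 42.2 to 60.3 and 39.6 to 57.9 CPM. None of the 24 tested markers of fibroblasts, immune cells, adipocytes, Schwann cells and blood and of the 12 slow and fast fiber genes passed for exercise, and *Cd3e* of T cells was at 0.102 CPM or less. In whole muscle, fewer cells of a type and less RNA per cell cannot be told apart, and the part of these cells in the clock genes was not tested. For genotype, *Pax7* alone of these markers passed, higher in mD3AKO mice by 0.48.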

How the data were processed

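The authors sequenced total RNA of the *soleus* after ribosomal depletion (TruSeq Stranded, 75-bp paired ends). Per the submitters' processing notes, FastQC 0.11.5, STAR 2.5.3a and featureCounts 1.5.3 were used, with mm10 and GENCODE M15. The deposited values are raw counts per gene and library, and 0 columns belonged to other samples. Symbols came from GENCODE M21 and matched 52403 of 52636 genes. Groups, sex and mouse numbers came from the labels.

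Genes were kept by filterByExpr (minimum count 10, minimum total 15), normalized by TMM and fitted with 1 mean per group in edgeR 4.0.16 (limma 3.58.1, R 4.3.3), tested by quasi-likelihood F tests and adjusted by Benjamini-Hochberg over 16340 genes, with 0.05 as threshold. The design followed the main effects and interaction named in the study's methods. CPM used TMM library sizes, and log2 CPM a prior count of 2. CPM per kilobase used the exon length of the count table. Relations with *Arntl* were tested by permutation (2-sided, 100000 resamples within groups; scripts in Python 3.11.15). Alternatives were DESeq2 1.42.0, limma-voom, other normalizations and filters, sex or runs of mouse numbers as terms, each sex alone, robust dispersion and each mouse left out; *Arntl* as a covariate and the fit of 8 groups were added after seeing the data. On simulated counts, 59.8% of exercise changes of 0.5 and 93.3% of 1 (log2) were recovered. All 67 replicate pairs differed by more than sampling noise. As each library is 1 mouse, the edgeR tests set group differences against the spread between mice, taken as 1 value per gene over all groups.

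The genes named are the 10 clock genes, the listed network genes that passed for exercise or genotype, the 5 genes most like *Arntl*, *Dbp* and *Per1*, and *Dnmt3a*. Other genes named were chosen after their values were seen. The clock genes and lists were chosen with earlier results of these data known.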

Additional observations from a re-analysis of the deposited data

How the results depend on the processing

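No paired analysis was possible because every mouse has a number of its own and the groups share none. The main effects of exercise on *Per1* and *Nr1d1* kept their direction and passed under every alternative run, and *Per2* did so except in males alone, at 0.88 (adjusted p = 0.0993, edgeR). Of the values compared, 1007 with a mouse left out kept direction and side of the threshold, 35 changed sign, 3 moved, 3 no longer passed and 2 newly passed. Under other settings 394 kept both, 12 changed sign, 3 moved, 6 no longer passed and 7 newly passed. The count of clock genes called for exercise stayed at 3 or 4 without any 1 mouse. In males alone it was 0 of the 10 in WT mice and 1 in mD3AKO mice, where fewer mice were fitted. In WT mice it was 1 to 2 without any 1 mouse. *Per2* passed in WT mice with sex or runs of mouse numbers as a term (1.14 both) and with the *Arntl* covariate (0.77), and *Nr1d2* in females alone (0.31, adjusted p = 0.0394). Exercise values near 0 changed sign. With sex as a term, *Cry1* was at 0.0015 and *Dbp* at 0.019, and with runs *Dbp* was at 0.029. In males alone, *Clock* was at 0.042, *Per3* at -0.16 and *Cry1* at 0.16, and in females alone *Dbp* was at 0.32. Also in females alone, the genotype value of *Nr1d1* at rest was -0.0991 and that of *Per1* after exercise -0.0107. With the *Arntl* covariate, *Clock* was at 0.019 and *Per3* at -0.19, and 1 further network gene passed for genotype (*Tsc22d3*, -0.27, adjusted p = 0.0323). Without each mouse in turn, exercise values ran from -0.032 to 0.0397 for *Cry1*, from -0.14 to 0.027 for *Dbp* and from -0.039 to 0.11 for *Per3*, and the genotype value of *Per2* from -0.12 to 0.0803 and of *Nr1d1* at rest from -0.0206 to 0.106. The relation of *Arntl* with *Cry1* was at r = -0.106 with 8 means and from -0.181 to 0.198 without each mouse. That with *Nr1d1* was from 0.284 to 0.490, passing without mouse 6, and at 0.558 with library totals, where it passed. The relations of *Arntl* with the remaining clock genes kept their sign and passed under the 3 other settings run for them. At the weakest, r was 0.787 for *Clock*, -0.847 for *Per2*, -0.689 for *Dbp* and -0.667 for *Per3*. It was -0.604 for *Cry2*, -0.566 for *Nr1d2* and -0.537 for *Per1*. The cause was not tested for any of these shifts. Over all genes, calls for exercise were 927 with library totals, 966 in males alone and 512 in females alone, against 1699. Those for genotype were 81 with DESeq2, 29 with library totals, 72 with sex and 97 with runs as a term, 23 in males and 6 in females, against 44. Genes with an unadjusted p under 0.05 for the interaction (edgeR) were 210 with library totals and 620 without mouse 23, against 403. They were 751 in males alone, 319 in females alone and 1314 of 35398 with no filter on low counts. Each of the 10 genes had at least 11348 reads in all.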
